A study of Mus musculus with 7 samples.

Results

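The snRNA-seq of cultured BB-p53n OPCs was examined for 10 astroglial and progenitor genes, which encode intermediate filaments, transporters, metabolic enzymes and surface or calcium-binding proteins. The genes *Vim*, *Nes*, *Gfap*, *Fabp7*, *Slc1a3*, *Slc1a2*, *Aldoc*, *Cd44*, *Aqp4* and *S100b* were chosen by symbol, and each matched 1 of the 33696 genes of the matrix. All 10 had at least 1 unique molecular identifier (UMI, a tag that marks 1 captured transcript) in the kept nuclei, as did 25898 genes of the matrix. Of 10047 deposited barcodes, 8917 had 2000 to 8000 detected genes and were kept as nuclei, with a median of 13771 UMIs. Of these, 1954 had at most 5% mitochondrial UMIs, which is also the size of the filtered set that the study lists for this library, although the text of its methods names no such filter. In those 1954 nuclei the same 5 genes were present throughout and the same 2 in few nuclei by the limits given below, *S100b* was at 74.4 CPM against 91.9 CPM in all kept nuclei, and *Vim* at 1675 against 1598 CPM.

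BB-p53n OPCs are oligodendrocyte progenitor cells that were taken with an antibody to CD140a (PDGFRα) from brains of *Trp53* fl/fl C57BL/6 pups of either sex at postnatal day 5 to 7. A PDGFB-IRES-CRE retrovirus then gave the cultured cells PDGFB overexpression and deleted *Trp53*, so that every cell of the study's model is meant to carry both changes. The nuclei came from 1 library of cells in culture, without the debris removal used for tissue, and OPCs without these changes were not analysed here. Brain samples of mice with early or late tumors belong to the same study and were not analysed here either. Levels are given in CPM, the UMIs of a gene relative to all UMIs of the same nuclei, and their ranges in parentheses are exact Poisson intervals at 95%. To compare shares of nuclei at a single depth, every nucleus was randomly thinned to 5000 UMIs, which 8760 nuclei reached, and ranges of shares are Clopper-Pearson intervals at 95%. With 1 library there were no replicates, so no difference was tested, and all intervals cover counting error only.

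The label of the cells was checked against marker lists. The OPC markers *Olig1* and *Olig2* had a UMI in 91.1% and 73.4% of the thinned nuclei, and the 5 OPC markers *Pdgfra*, *Cspg4*, *Olig1*, *Olig2* and *Sox10* summed to 1319 CPM. The share was 57.5% for *Pdgfra*, 25.3% for *Cspg4* and 29.8% for *Sox10*, and in re-derived cluster 1, described below, it was 4.99%, 4.93% and 2.17%. The summed level of the 5 ran from 770 CPM in cluster 1, of which *Olig1* gave 520 and *Olig2* 212 CPM, to 1513 CPM in cluster 0. The summed level was 7.36 CPM for 6 microglial markers (6.32 to 16.2 between clusters), 7.66 CPM for 4 endothelial markers (2.94 to 15.7) and 0.560 CPM for 6 pericyte and fibroblast markers (0.361 to 5.55). *C1qa* and *Cldn5*, defining genes of microglia and of endothelial cells, had 0 UMIs. Of the oligodendrocyte markers, *Cnp* had 57.2 CPM, *Mbp* 2.54 CPM and *Mog* 0.0709 CPM. The 6 neuron markers summed to 124 CPM, mostly from *Syt1* at 109 CPM.

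As background, the 10 genes are used to follow the astroglial lineage. Radial glia, the progenitors that line the embryonic ventricles, hold the filament proteins vimentin and nestin, the fatty acid carrier FABP7 (also called BLBP) and the glutamate transporter SLC1A3 (GLAST). As astrocytes mature they gain GFAP, the transporter SLC1A2 (GLT-1), the glycolytic enzyme aldolase C and the water channel aquaporin-4. Several of these genes are not restricted to astrocytes, since progenitors of the oligodendrocyte lineage can also contain vimentin, nestin, FABP7 and S100B.

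The genes separated into those found in every cluster and those hardly found at all. A gene was called present throughout when at least 25% of the thinned nuclei of each of 8 re-derived clusters had a UMI of it, and in few nuclei when under 5% of all thinned nuclei had one. *Vim*, *Nes*, *Fabp7*, *Slc1a3* and *Aldoc*, 5 of the 10 genes, were present throughout, against 9.82% of the 25898 genes with a UMI. *Gfap* and *Aqp4*, 2 of the 10, were in few nuclei, against 64.4% of those genes. *S100b*, *Cd44* and *Slc1a2* lay between these limits. The genes nearest to the limits were *Slc1a3*, with 33.5% of nuclei in its lowest cluster, and *Slc1a2*, with 6.03% of all thinned nuclei. Thinned to 3000 UMIs in place of 5000, *Slc1a3* was no longer present throughout and *Slc1a2* was in few nuclei.

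**Figure D1:**
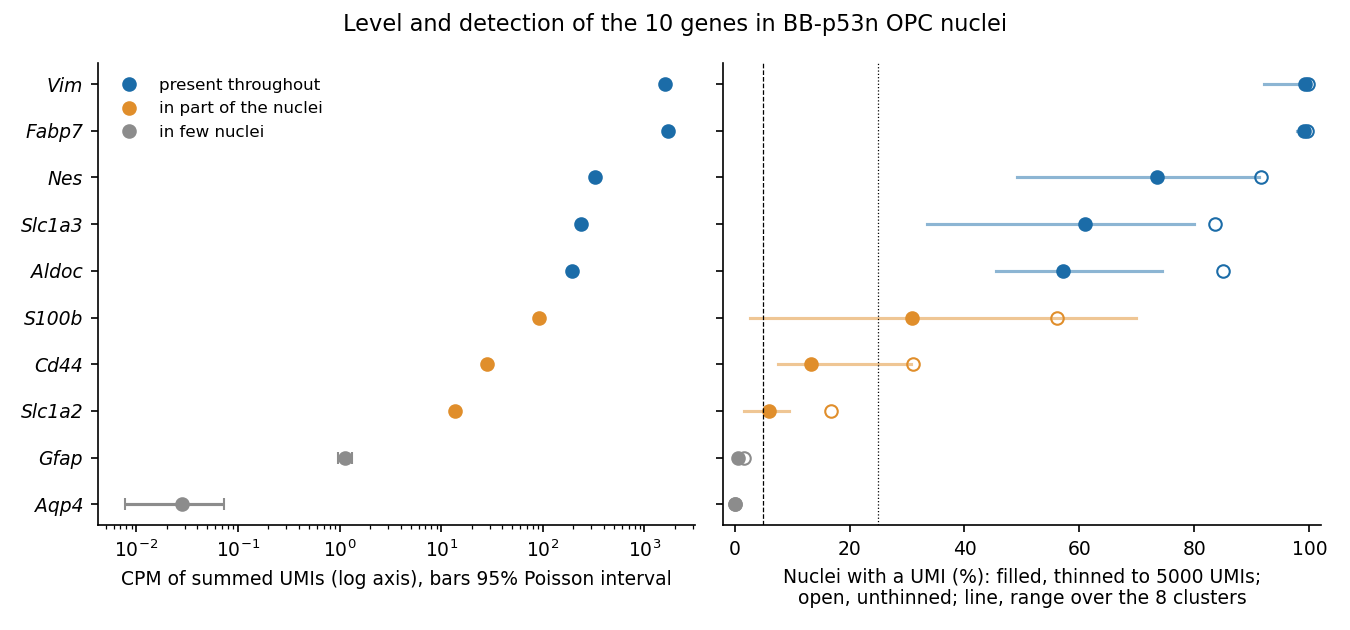
Left, level of each gene in CPM on a log axis, with the 95% Poisson interval; right, percent of nuclei with a UMI of the gene, filled points for nuclei thinned to 5000 UMIs, open points unthinned, lines for the range of thinned shares over the 8 re-derived clusters, and the limits of 5% (dashed) and 25% (dotted). *Fabp7* and *Vim* lie above 99% of nuclei, *Gfap* at 0.594% and *Aqp4* at 0.0228%, and the line of *S100b* spans 2.76% to 69.8%.

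To show the regulatory sequence of genes at both ends of this range, the 250 bases before the start of the canonical transcript are printed for *Vim*, *Nes* and *Fabp7*, which were present throughout, for *S100b*, which was in part of the nuclei, and for *Gfap*, which was in few. They were read from GRCm39 on the strand of the gene, 5′ to 3′, with each CG dinucleotide in capitals. The sequence of *Vim* is chr2:13578513-13578762 (plus strand), of *Nes* chr3:87878150-87878399 (plus), of *Fabp7* chr10:57660706-57660955 (plus), of *S100b* chr10:76089234-76089483 (plus) and of *Gfap* chr11:102788186-102788435 (minus).
Vim: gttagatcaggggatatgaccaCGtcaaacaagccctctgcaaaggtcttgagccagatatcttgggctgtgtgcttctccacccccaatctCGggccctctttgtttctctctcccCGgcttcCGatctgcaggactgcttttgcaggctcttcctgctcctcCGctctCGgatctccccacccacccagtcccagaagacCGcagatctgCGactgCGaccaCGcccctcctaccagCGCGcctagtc
Nes: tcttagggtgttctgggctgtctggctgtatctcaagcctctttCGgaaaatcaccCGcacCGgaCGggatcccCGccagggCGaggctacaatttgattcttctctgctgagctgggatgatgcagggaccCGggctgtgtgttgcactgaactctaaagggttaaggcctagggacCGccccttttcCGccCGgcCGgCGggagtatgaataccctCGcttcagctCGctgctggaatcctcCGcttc
Fabp7: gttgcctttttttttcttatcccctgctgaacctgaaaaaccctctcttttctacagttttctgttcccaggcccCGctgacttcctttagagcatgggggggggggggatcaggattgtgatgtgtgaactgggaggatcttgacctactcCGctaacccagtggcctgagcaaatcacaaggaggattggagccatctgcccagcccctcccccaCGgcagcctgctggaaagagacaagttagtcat
S100b: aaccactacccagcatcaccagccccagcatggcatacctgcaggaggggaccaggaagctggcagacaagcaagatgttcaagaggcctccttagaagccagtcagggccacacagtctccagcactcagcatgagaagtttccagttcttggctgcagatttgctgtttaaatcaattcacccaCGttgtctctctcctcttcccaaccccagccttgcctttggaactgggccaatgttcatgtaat
Gfap: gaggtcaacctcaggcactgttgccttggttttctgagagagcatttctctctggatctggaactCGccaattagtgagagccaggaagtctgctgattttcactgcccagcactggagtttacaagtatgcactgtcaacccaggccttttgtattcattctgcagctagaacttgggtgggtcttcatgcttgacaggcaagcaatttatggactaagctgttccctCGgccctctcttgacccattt

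The *Vim* sequence held 12 CG dinucleotides and that of *Nes* 15, more than 63.0% and 72.1% of the 21757 protein-coding promoters of the same length. *Fabp7*, like *Vim* found in over 99% of thinned nuclei, had 3 CG dinucleotides, *Gfap* had 2 and *S100b* had 1. The median of all promoters was 8. The motif CCAAT, searched on both strands, was in the printed sequences of *Vim*, *Fabp7*, *S100b* and *Gfap*, and in 36.5% of all promoters. TATAAA, also searched on both strands, was in none of the 5 and in 11.9% of all promoters. A match is a string of letters and was not tested as a binding site.

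Among the intermediate filaments, *Vim* (ENSMUSG00000026728) lies on chromosome 2 from 13578738 to 13587639 on the plus strand and encodes vimentin, the main filament of progenitors and of many mesenchymal cells. It was counted 225477 times, a level of 1598 CPM (1591 to 1604), and only 47 genes had more UMIs. Of the thinned nuclei, 99.2% (99.0 to 99.4) had a UMI of *Vim*, and its median was 7 UMIs with 2 at the 5th and 17 at the 95th percentile. *Vim* was therefore found not only in nearly all nuclei but at several UMIs in most of them.

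*Nes* (ENSMUSG00000004891; chromosome 3, 87878385 to 87887758, plus strand) encodes nestin, a large filament protein that assembles with vimentin and marks dividing neural progenitors. Its level was 325 CPM (322 to 328), from 45833 UMIs. A UMI of *Nes* was found in 73.5% of thinned nuclei (72.6 to 74.4) and in 91.6% of nuclei without thinning. In the 25% of nuclei with the fewest UMIs the unthinned share was 78.0% and in the 25% with the most it was 99.5%, so the unthinned share was higher in deeper nuclei.

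*Gfap* (ENSMUSG00000020932; chromosome 11, 102778159 to 102791738, minus strand) encodes the filament protein used most often to identify astrocytes. It was counted 160 times among 141138093 UMIs, a level of 1.13 CPM (0.965 to 1.32), and 13507 genes had more UMIs. Before thinning 153 nuclei had a UMI, 1.72% of 8917 (1.46 to 2.01), and after thinning 52 nuclei did, 0.594% (0.444 to 0.778). The most in 1 nucleus was 2 UMIs, seen in 7 nuclei. For scale, of the 6 microglial markers *P2ry12* and *Cx3cr1* lay above *Gfap*, at 5.25 and 1.53 CPM. *Csf1r*, *Tmem119*, *Aif1* and *C1qa* lay below it, at 0.517, 0.0567, 0.00709 and 0 CPM. The barcodes below 2000 detected genes, with a median of 1717 UMIs, held 2 UMIs of *Gfap*, a level of 1.14 CPM (0.138 to 4.11). Whether the *Gfap* UMIs came from free RNA was not tested.

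Nuclei with a UMI of *Gfap* were deeper than the rest, and of the other astroglial genes *S100b* was higher in them while *Vim* and *Fabp7* were lower, by small ratios. Their median was 19754 UMIs, against 13680.5 in nuclei without one, and 41 of the 153, or 26.8%, were called doublets by Scrublet, against 16.7% of all nuclei. The expected rate given to the program was 8%, so it called more than that rate, and the calls rest on the threshold it set. The level of *Vim* in nuclei with *Gfap* over that in nuclei without was 0.943 (0.917 to 0.970), that of *Fabp7* 0.927 (0.901 to 0.953) and that of *Slc1a3* 1.00 (0.934 to 1.08). The same ratio was 1.00 (0.731 to 1.35) for *Slc1a2* and 1.15 (1.03 to 1.28) for *S100b*. *Gja1*, the main astrocyte connexin, was counted 0 times in them and *Aldh1l1*, an astrocyte folate enzyme, 1 time. The mitotic genes *Top2a* and *Cenpf* were 1.35 (1.30 to 1.40) and 1.42 times as high in nuclei with *Gfap*. Depth, doublet calls and mitotic genes thus moved with *Gfap* detection, and their part in it was not tested.

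Of the genes for lipid and glutamate handling, *Fabp7* (ENSMUSG00000019874; chromosome 10, 57660956 to 57664554, plus strand) encodes the fatty acid carrier of radial glia. Its level of 1709 CPM (1702 to 1716) came from 241180 UMIs, and 40 genes had more. It had a UMI in 99.1% of thinned nuclei (98.9 to 99.3), with a median of 8 and with 2 and 20 at the 5th and 95th percentiles. At least 10 UMIs were found in 36.3% of thinned nuclei for *Fabp7* and in 31.2% for *Vim*, whereas for *Nes* they were found in 0.126%.

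*Slc1a3* (ENSMUSG00000005360; chromosome 15, 8663604 to 8741595, minus strand) encodes GLAST, the glutamate transporter of radial glia and young astrocytes. Its level was 237 CPM (235 to 240), with a UMI in 60.9% of thinned nuclei (59.9 to 62.0). *Slc1a2* (ENSMUSG00000005089; chromosome 2, 102488574 to 102621129, plus strand) encodes GLT-1, the transporter that takes up most glutamate in the mature forebrain. Its level was 13.7 CPM (13.1 to 14.4), with a UMI in 6.03% of thinned nuclei (5.54 to 6.55). The transporter of radial glia was thus found in most nuclei and that of mature astrocytes in a small share of them. *Slc1a2* is the longer gene, so per kb of gene the levels stood further apart, at 3.05 CPM for *Slc1a3* and 0.104 CPM for *Slc1a2*.

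*Aldoc* (ENSMUSG00000017390; chromosome 11, 78213619 to 78218889, plus strand) encodes aldolase C, the brain form of a glycolytic enzyme. Its level was 192 CPM (190 to 194), and 57.2% of thinned nuclei (56.1 to 58.2) had a UMI. *Aldoa*, the ubiquitous form, summed to 140 CPM, but that symbol has 2 overlapping rows in the matrix between which its reads could be split, so its level is uncertain.

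Of the remaining genes, *S100b* (ENSMUSG00000033208; chromosome 10, 76085090 to 76097159, plus strand) encodes a calcium-binding protein of astrocytes and of maturing oligodendrocyte lineage cells. Its level was 91.9 CPM (90.3 to 93.5), with a UMI in 30.8% of thinned nuclei (29.9 to 31.8) and in 56.0% without thinning. Its 3′ part overlaps *Dip2a*, a gene on the opposite strand with 4363 UMIs. *Cd44* (ENSMUSG00000005087; chromosome 2, 102641486 to 102732010, minus strand) encodes the hyaluronan receptor of astrocyte precursors and many glioma cells. Its level was 28.4 CPM (27.5 to 29.3), and 13.4% of thinned nuclei (12.7 to 14.1) had a UMI.

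*Aqp4* (ENSMUSG00000024411; chromosome 18, 15522451 to 15544039, minus strand) encodes the water channel of astrocyte endfeet. It was counted 4 times in all kept nuclei, in 4 nuclei, a level of 0.0283 CPM (0.00772 to 0.0726) and close to the 0.0213 CPM that 3 counts would give. After thinning 2 nuclei of 8760 had a UMI. Of the proteins that anchor aquaporin-4 at the endfoot, *Dag1* (dystroglycan) and *Dmd* (dystrophin) were present throughout at 138 and 145 CPM, and *Dtna* (dystrobrevin alpha) had 77.4 CPM. These genes of the anchoring complex were thus detected in nuclei in which the channel gene itself was near the limit of a few counts.

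Per kb of gene, the scale on which genes of different length are compared here, the levels fell in the order *Fabp7* (475 CPM per kb), *Vim* (179), *Aldoc* (36.4), *Nes* (34.6), *S100b* (7.61), *Slc1a3* (3.05), *Cd44* (0.314), *Slc1a2* (0.104), *Gfap* (0.0835) and *Aqp4* (0.00131). The counting intervals of no pair of neighbours in this order overlapped. The closest were *Aldoc*, at 36.0 to 36.9, and *Nes*, at 34.3 to 35.0, and *Slc1a2*, at 0.0990 to 0.108, and *Gfap*, at 0.0711 to 0.0975. The order depends on this scale, which the intervals do not cover. In CPM, *Nes* (325) was above *Aldoc* (192) and *Slc1a3* (237.5) above *S100b* (91.9). The library is of 3′ chemistry, and whether its counts rise with gene length was not tested.

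**Figure D2:**
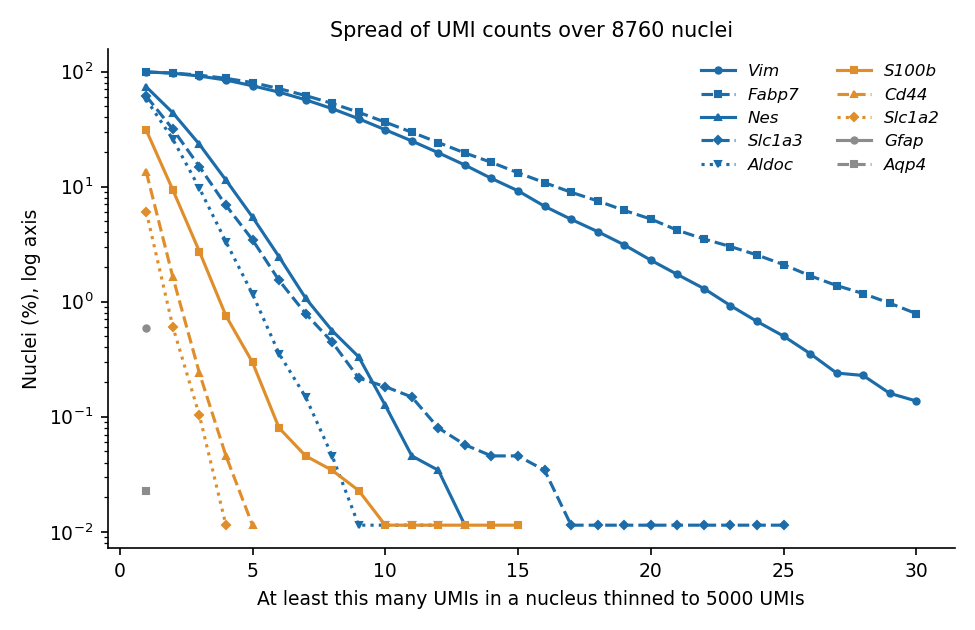
Percent of 8760 nuclei, on a log axis, with at least the number of UMIs on the x axis after thinning to 5000 UMIs, 1 line per gene (blue, present throughout; orange, in part of the nuclei; grey, in few nuclei). *Fabp7* and *Vim* extend past 30 UMIs, *Cd44* ends at 5 and *Slc1a2* at 4, and *Gfap* and *Aqp4* have a point at 1 UMI alone.

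Each gene was then set among its relatives and among other genes of astroglia, from lists of families and markers. Of 13 intermediate filament genes, 3 were present throughout, namely *Vim*, *Nes* and *Lmnb1* (the nuclear lamin B1, 339 CPM). *Synm* and *Des*, which pair with vimentin in astrocytes and muscle, had 0.390 and 0.0496 CPM. The neurofilament genes *Nefl* and *Nefm* had 4.17 and 13.4 CPM and *Ina* (alpha-internexin) 15.8 CPM. Of 9 fatty acid binding protein genes, *Fabp7* and *Fabp5* (615 CPM) were present throughout and the other 7 were in few nuclei, at 0.779 CPM or below. The family therefore came down to the carriers known from neural progenitors.

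Of 7 SLC1 transporters, *Slc1a3* was present throughout. The neuronal glutamate transporter gene *Slc1a1* had 48.0 CPM and the neutral amino acid exchangers *Slc1a4* and *Slc1a5* had 31.5 and 11.2 CPM, and these 3 were in part of the nuclei, as was *Slc1a2*. Of 15 S100 genes, *S100a10* (an annexin A2 partner, 182 CPM) was present throughout, *S100b* and *S100a16* (51.5 CPM) were in part of the nuclei, and 12 were in few. Of 10 genes for CD44 and hyaluronan, *Msn* and *Rdx*, which encode moesin and radixin and tie CD44 to actin, were present throughout at 187 and 241 CPM. *Has2*, the main hyaluronan synthase of progenitors, had 17.8 CPM.

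Among 20 other astrocyte genes, *Sox9* alone was present throughout (205 CPM), 9 were in part of the nuclei and 10 in few. *Glul* (glutamine synthetase, 72.2 CPM) and *Acsbg1* (an acyl-CoA synthetase, 53.1 CPM) had a UMI in 28.2% and 21.7% of thinned nuclei, while *Gja1* had 0.0425 CPM, *Aldh1l1* 0.383 CPM, *Slc7a10* 0.184 CPM and *Agt* 0.177 CPM, and *Gjb6* had 0 UMIs. Of 13 other radial glia and progenitor genes, *Ptprz1* (a receptor phosphatase, 1895 CPM) and *Sox2* (206 CPM) were present throughout, 8 were in part of the nuclei and *Hopx*, *Nr2e1* and *Prom1* in few. Of 9 regulators of the astroglial program, *Nfia*, *Nfib*, *Stat3* and *Zbtb20* were present throughout, at 714, 677, 93.8 and 187 CPM. Genes in common use for radial glia and for astrocytes were thus found on both sides of the separation.

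**Figure D3:**
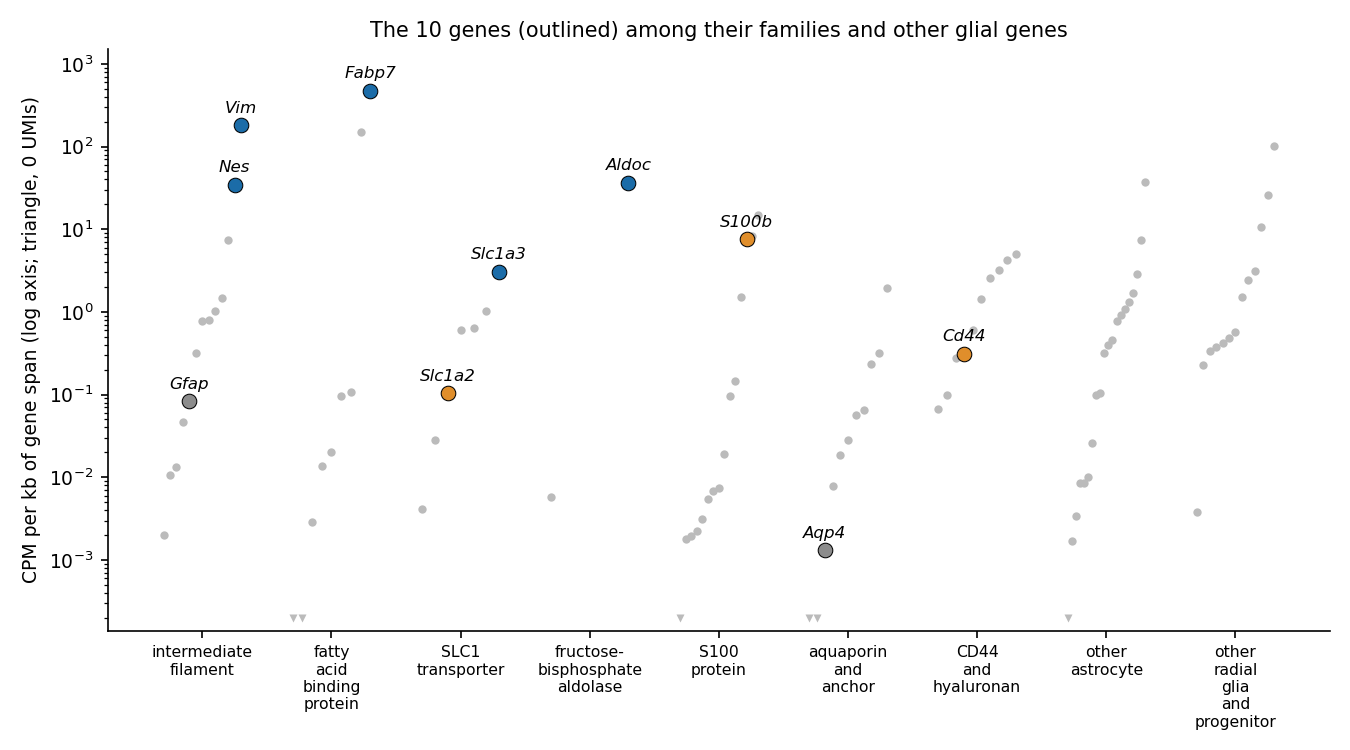
Level of each list gene in CPM per kb of gene on a log axis, by family or list, with the 10 genes outlined and named, other genes in grey and triangles for genes with 0 UMIs; *Aldoa*, without a single length, is left out. *Vim* and *Fabp7* top their families at 179 and 475 CPM per kb, and *Aqp4* lies at 0.00131.

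Between the 8 re-derived clusters, numbered from 0 by size and not matched to clusters of the study, the genes differed in level even where they were found throughout. Cluster 1 had the highest *Nes* and *Fabp7* and the lowest *S100b* and *Slc1a2*. Cluster 3 had the highest *Slc1a3* and, with cluster 2 within the counting interval, the highest *Vim*. Cluster 7, of 182 nuclei, had the lowest *Vim*, *Nes*, *Fabp7* and *Slc1a3* and the highest *S100b*, *Cd44*, *Aldoc* and *Slc1a2*. The highest over the lowest cluster level was at least 2 for 8 of the 8 genes with at least 1000 UMIs, against 40.8% of 10079 such genes. *Vim*, *Nes*, *Slc1a3*, *Slc1a2*, *Cd44* and *S100b* were among the variable genes used for clustering, but the count was also 8 with all members left out of them. It was 3 of 6 genes, *Nes*, *Slc1a3* and *S100b*, when only nuclei with mitochondrial UMIs of at most 5% were clustered, 5 of 8 without cluster 1 and 6 of 8 without cluster 7.

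*S100b* varied most. Its level was 7.22 CPM (6.15 to 8.43) in cluster 1, and 56.7, 153, 63.3, 136, 94.9 and 145 CPM in clusters 0, 2, 3, 4, 5 and 6, and 303 CPM (281 to 327) in cluster 7. The highest was 42.0 times the lowest. A UMI of *S100b* was found in 2.76% of thinned nuclei of cluster 1 and in 69.8% of those of cluster 7. Its level was thus high in clusters 2, 4, 6 and 7 and nearly absent in cluster 1.

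*Nes* was 580 CPM (570 to 590) in cluster 1, 166 CPM (149 to 184) in cluster 7 and lay from 243 to 332 CPM in the remaining 6. The share of nuclei with *Nes* was 91.3% in cluster 1 and 49.2% in cluster 7. *Fabp7* was 2585 CPM (2564 to 2607) in cluster 1, 1896 CPM in cluster 3, 1132 CPM (1088 to 1178) in cluster 7 and 1416 to 1575 CPM in the remaining 5. *Vim* went the other way in cluster 1, at 1120 CPM (1106 to 1134), and was lowest in cluster 7, at 745 CPM (710 to 783), against 1546 to 1840 CPM elsewhere. Nestin and its filament partner vimentin were therefore not highest in the same cluster.

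*Slc1a3* was highest in cluster 3, at 423 CPM (413 to 433), and lowest in clusters 0 and 7, at 111 CPM (107 to 115) and 110.5 CPM (97.0 to 126). *Aldoc* was 320 CPM (297 to 345) in cluster 7, 288 CPM (280 to 296) in cluster 3 and 133 CPM (128 to 137) in cluster 0. *Slc1a3* and *Aldoc* were thus both low in cluster 0 and high in cluster 3, and parted in cluster 7. *Slc1a2* was 3.75 CPM (2.98 to 4.65) in cluster 1 and from 14.1 to 19.0 CPM in the remaining 7, so its difference lay in cluster 1. Its interval in cluster 7, 13.6 to 25.7 CPM, overlapped those of the other 6.

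*Cd44* was high in 2 clusters, at 57.3 CPM (54.2 to 60.6) in cluster 1 and 70.8 CPM (60.0 to 82.9) in cluster 7, and 15.3 to 29.4 CPM in the others, and the intervals of clusters 1 and 7 overlapped. *Cd44* and *S100b* were therefore both high in cluster 7, while in cluster 1 *Cd44* was high and *S100b* low. Of the thinned nuclei of cluster 7, 21.8% had both and 21.2% neither. In cluster 1, 22.7% had *Cd44* without *S100b*, 2.23% had *S100b* without *Cd44* and 0.529% had both. *Gfap* stayed at 1.79 CPM or below in each of the 8 clusters. Its level in cluster 4, 1.79 CPM (1.24 to 2.49) from 35 UMIs, had an interval that overlapped those of clusters 0, 1, 3, 5, 6 and 7, and in nuclei with at most 5% mitochondrial UMIs its log2 ratio to the rest turned from 0.80 to -0.28. In cluster 2 *Gfap* had 6 UMIs, or 0.296 CPM (0.109 to 0.644). The 4 UMIs of *Aqp4* lay in clusters 1, 4 and 5.

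**Figure D4:**
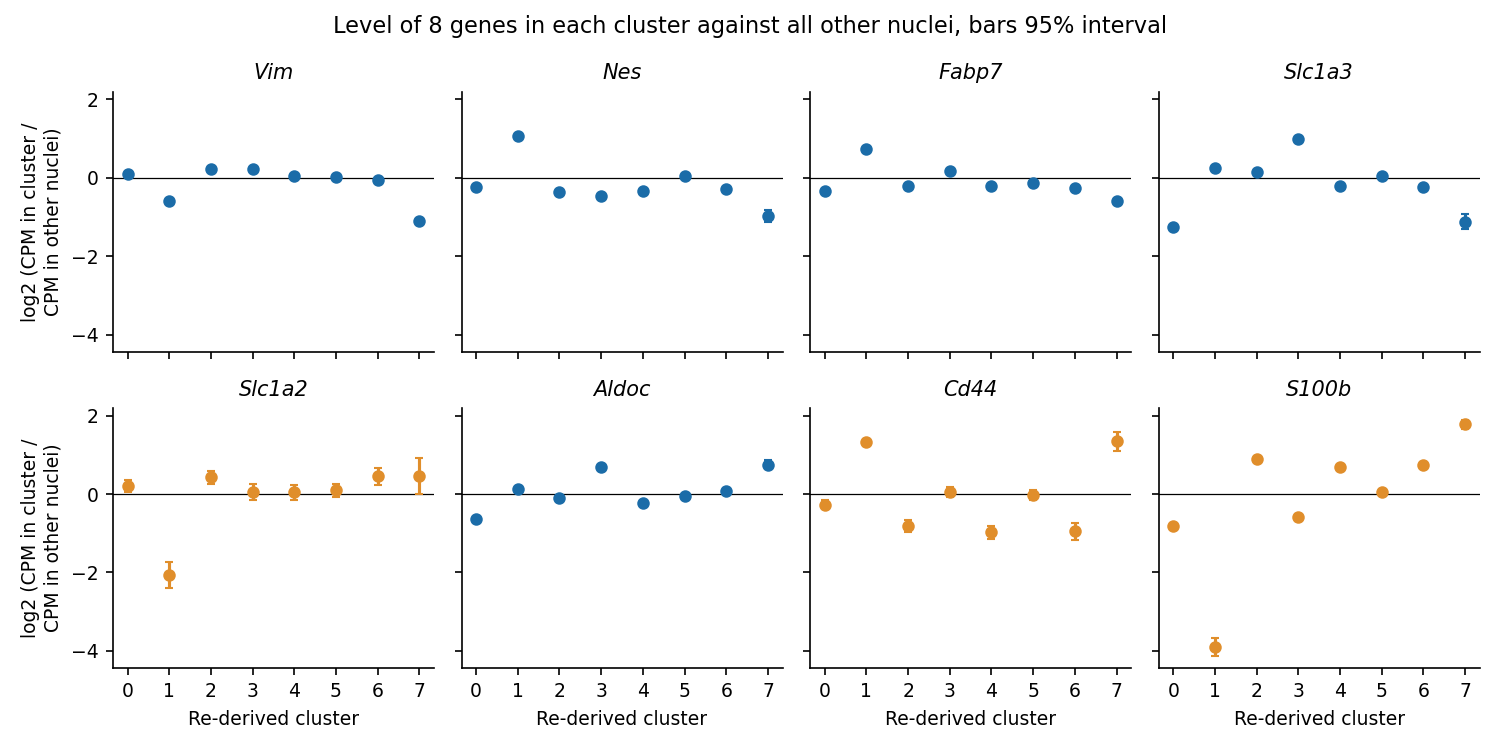
log2 of the level of each gene in a re-derived cluster over its level in all other nuclei, with 95% counting intervals, for the 8 genes with at least 1000 UMIs (blue, present throughout; orange, in part of the nuclei). *S100b* is at -3.90 in cluster 1 and 1.78 in cluster 7, *Nes* at 1.07 in cluster 1, and *Vim* at -1.11 in cluster 7.

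Several other measures moved with these clusters. Cluster 1 also had the lowest level of *Pdgfra*, *Sox10* and *Slc1a1* among the clusters, with *Pdgfra* at 19.4 CPM against 256 CPM in all nuclei, *Sox10* at 5.87 against 87.3 CPM and *Slc1a1* at 3.12 against 48.0 CPM. It was the cluster with the highest *Tnc* (tenascin-C, an extracellular matrix protein of radial glia) at 642 CPM, *Slc4a4* (a bicarbonate transporter) at 159 CPM, *Mlc1* (an astrocyte membrane protein) at 96.7 CPM and *Apoe* (the main lipid carrier of the brain) at 35.4 CPM. In cluster 1, 93.2% of thinned nuclei had a UMI of *Xist*, the transcript of the inactive X chromosome, against 1.11% to 2.24% in clusters other than 1 and 5. Cells of the pups of either sex were not labelled apart, so the state of cluster 1 and the sex or origin of its cells cannot be told apart. Of the 10079 genes with at least 1000 UMIs, 37.5% had their highest level in cluster 1.

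Cluster 7 had the highest *Nfia*, at 1827 CPM, and the highest *Gpc5* and *Dtna*, at 157 and 278 CPM, and it was the highest cluster for 17.2% of genes. In cluster 5, where the levels of the 8 genes with at least 1000 UMIs were 0.908 to 1.07 times those of all other nuclei, the median nucleus had 30276 UMIs, 90.5% of nuclei were called doublets and 36.0% had *Xist*. The share of doublet calls was 4.21% to 19.2% in the other clusters. With the called doublets removed and the rest clustered anew, the highest over the lowest cluster level was at least 2 for 8 of 8 genes. The part of depth and sex in the levels was not tested.

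All 5 genes present throughout had a UMI in 2327 of 8760 thinned nuclei, or 26.6%, close to the 25.2% given by the product of their single shares, and at least 4 of them in 68.9%. In 1 nucleus none was found. All 5 were found in 38.3% of nuclei of cluster 1, 37.5% of cluster 3, 12.3% of cluster 0 and 8.94% of cluster 7, where the products of the shares were 36.7%, 36.4%, 11.7% and 11.03%. Counts of members within nuclei were only weakly related: over 8760 thinned nuclei of the same library, the Pearson correlation of log(1 + UMIs) was 0.14 for *Nes* and *Fabp7* and -0.14 for *Nes* and *S100b*. After the mean of each cluster was taken out these were 0.04 and -0.04. For *Vim* and *Nes* the value was -0.01 over all nuclei and 0.09 within clusters, and for *Vim* and *Fabp7* 0.03 and 0.10. All nuclei share depth after thinning, so a gene that takes more of the 5000 UMIs leaves fewer to the rest.

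Among 3678 genes found in at least 25% of these nuclei, those most like *Vim* over all nuclei were *Tpm1* (a tropomyosin, r = 0.28), *Dbi* (the acyl-CoA binding protein, 0.28) and *Tagln2* (transgelin 2, 0.27). Those most like *Nes* were *Vav3* (0.27), *Tnc* (0.26) and *Igfbp2* (0.25), and those most like *Fabp7* were *H2az1* (0.29), *Fth1* (0.29) and *Igfbp2* (0.29). For *Slc1a3* they included *Sntg1* (0.17) and *Lgals1* (0.16), and for *Aldoc* they included *Tmsb4x* (0.12) and *Ckb* (0.11). The likeness to *Nes* lay mostly between clusters, since within clusters the correlation was 0.05 for *Vav3*, 0.08 for *Tnc* and 0.01 for *Igfbp2*. For *Vim* it was 0.16 to 0.19 within clusters for the same 3 genes.

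By cell cycle phase, scored from other genes, the pooled levels of the members other than *Gfap* and *Aqp4* differed by small ratios, and several differed more within clusters. Of the nuclei, 29.8% were scored G1, 25.8% S and 44.4% G2/M. The level in G2/M over that in G1 was 0.885 (0.876 to 0.894) for *Vim*, 1.11 (1.08 to 1.13) for *Nes*, 1.07 (1.06 to 1.08) for *Fabp7* and 0.786 (0.756 to 0.818) for *S100b*. It was 0.896 (0.874 to 0.919) for *Slc1a3* and 0.974 (0.946 to 1.00) for *Aldoc*. Clusters differ in phase and in level, and within clusters the ratio for *S100b* was 1.06 in cluster 2 and 1.17 in cluster 4, and 0.656 to 0.975 in the other 6. Within clusters it ran from 0.768 to 1.08 for *Vim*, from 0.880 to 1.25 for *Nes*, from 0.882 to 1.21 for *Fabp7*, from 0.540 to 1.09 for *Slc1a3* and from 0.699 to 1.34 for *Aldoc*, so the direction was not the same in every cluster. For *Slc1a2* the pooled ratio was 0.897 (0.804 to 1.001), and within clusters it ran from 0.722 in cluster 3 to 1.42 in cluster 1. For *Cd44* the pooled ratio was 0.903 (0.837 to 0.974), and within clusters it was 1.04 in cluster 1, 0.949 in cluster 3 and 0.527 to 0.746 in the other 6. On the log2 scale *Cd44* was at -0.15, and at -0.42 in nuclei with at most 5% mitochondrial UMIs. On the log2 scale, 7 of the 8 members with at least 1000 UMIs lay between the 5th and 95th percentile of all genes, -0.34 and 0.45, and *S100b* lay at the lower of these, at -0.35.

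*Gfap* was the exception, at 0.471 CPM (0.274 to 0.754) in G1 from 17 UMIs, 1.06 CPM (0.734 to 1.48) in S from 34 UMIs and 1.49 CPM (1.23 to 1.80) in G2/M from 109 UMIs. The ratio of G2/M to G1 was 3.18 (1.90 to 5.65), or 1.67 on the log2 scale. The log2 ratio was 1.19 (0.55 to 1.87) with phases scored on thinned counts. In nuclei with at most 5% mitochondrial UMIs it was 2.34 (0.35 to 5.45). Of the thinned nuclei, 0.193% of those in G1 and 0.873% of those in G2/M had a UMI of *Gfap*. Within clusters other than 2 the ratio of levels ran from 0.440 in cluster 4 to 5.23 in cluster 0. Cluster 2 had 6 UMIs of *Gfap* and none in its G1 nuclei, so it gave no ratio. Nuclei scored G2/M had a median of 16473.5 UMIs and those scored G1 11780, and the part of depth was not tested.

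**Figure D5:**
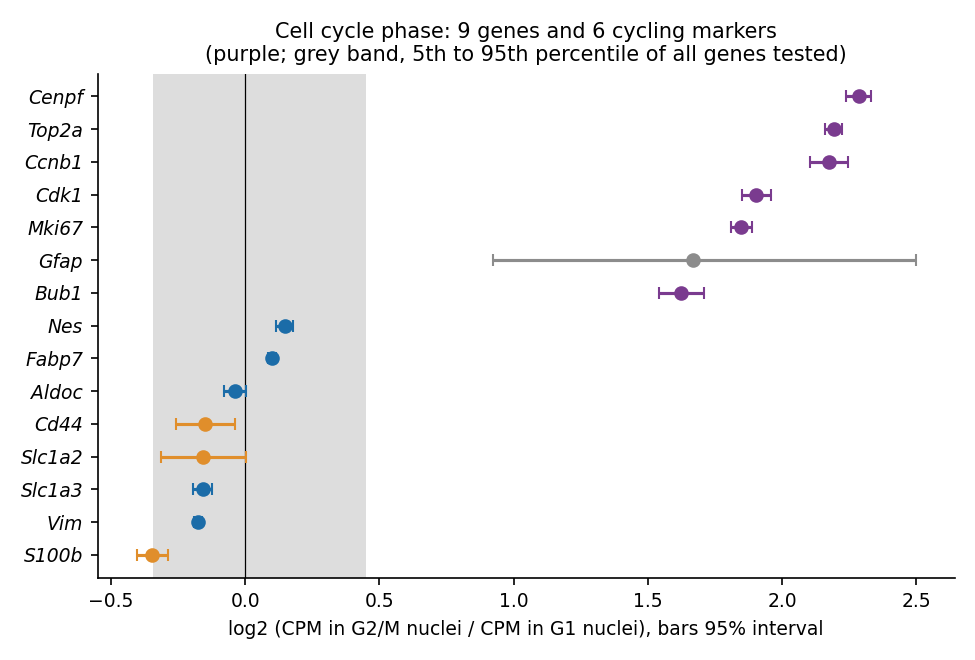
log2 of the level in G2/M nuclei over that in G1 nuclei with 95% counting intervals, for 9 of the genes and 6 cycling markers (purple), with the 5th to 95th percentile of all genes with at least 1000 UMIs as a grey band; *Aqp4*, with 4 UMIs, is left out. The cycling markers other than *Ccnb1* are among the genes that scored the phases, so their ratios are partly set by the scoring and are no test. *Gfap* is at 1.67 with a wide interval, and the other members plotted lie between -0.35 and 0.15.

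Finally, the barcodes outside the cutoffs were compared with the kept nuclei. In the 918 barcodes below 2000 detected genes, mitochondrial genes took 19.5% of UMIs, against 6.34% in the kept nuclei, and relative to all UMIs but the mitochondrial ones *Fabp7* was 1081 against 1824 CPM, *Vim* 1239.5 against 1706 CPM and *Nes* 209.9 against 347 CPM. *Slc1a3*, at 295 against 254 CPM, was higher in them on this scale, but relative to all UMIs it was 237.9 (215.6 to 261.8) against 237.5 CPM. Without the mitochondrial UMIs, *Slc1a2*, from 22 UMIs, was 15.6 against 14.7 CPM. *Aldoc* was 121.5 against 205 CPM, and *S100b* was 72.1 against 98.1 CPM. Of the genes present throughout, 4 were therefore lower among the shallow barcodes, and *Slc1a3* was not. In the 212 barcodes above 8000 genes, again without the mitochondrial UMIs, *Vim* was 1790 against 1706 CPM and *Fabp7* 1662 against 1824 CPM. Relative to all UMIs, *Gfap* was 1.39 CPM (0.797 to 2.26) in them, against 1.13 CPM in the kept nuclei.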

How the data were processed

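The counts are UMIs per barcode and gene, which the authors deposited unnormalized after alignment and nucleus calling by Cell Ranger 8.0.1 with mm39. This snRNA-seq library of BB-p53n OPCs (10x 3′ v3.1 chemistry) holds 154375410 UMIs, 141138093 of them in kept nuclei. Nuclei within 2000 and 8000 detected genes were log-normalized (scale factor 1000) and clustered in Seurat 5.3.0 (R 4.3.3) on 3000 variable genes and 20 principal components, with total counts regressed out, using 200 neighbors and resolution 1.0. Phases were scored with 43 S and 54 G2/M genes. Scrublet (scanpy 1.11.5) called 1488 nuclei doublets, which were kept, since the methods name no removal. Intervals used scipy 1.17.1 and were checked on simulated data. Positions come from GENCODE vM39 (GRCm39), which 33185 of the 33696 genes matched.

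The genes named are the 10 members, 17 lists with 149 genes in all, and for each member present throughout the 3 genes with the highest correlation, apart from some genes that are not reported here. The members and lists were chosen with earlier results of these data known. Alternatives were other nuclei kept, removal of doublets, other thinning, other clusterings, other phase scoring and a mean over nuclei; leaving out cluster 1 or 7 was added after seeing the data.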

Additional observations from a re-analysis of the deposited data

How the results depend on the processing

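The 5 genes present throughout and the 2 genes in few nuclei were the same under every alternative that was run, except thinning to 3000 UMIs, with 4 and 3 genes. The number of genes that differed at least 2-fold between clusters was 3 of 6 with at most 5% mitochondrial UMIs, where fewer nuclei left 6 genes with at least 1000 UMIs, 5 of 8 without cluster 1, 6 of 8 without cluster 7, and 8 of 8 under the other 7 alternatives. The log2 ratio of *Gfap* in cluster 4 over the rest, 0.80, was -0.28 (-2.63 to 1.39) with at most 5% mitochondrial UMIs, and the cause was not tested. That filter moved the level of 8 of 10 genes out of the counting interval, *S100b* to 74.4 CPM. Thinning to 3000 UMIs or none moved 9 of 10 shares. At this depth 3 counts in all kept nuclei correspond to 0.0213 CPM, so *Aqp4* lies at the limit of detection. No paired analysis was possible because there is 1 library.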

Other observations

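Other gene groups showed how the same nuclei divide. *Sox9*, which encodes a glial transcription factor, was 452 CPM (443 to 460) in cluster 0 and 395 CPM (385 to 404) in cluster 3, 278 CPM in cluster 7 and 192 CPM in cluster 5, and between 65.1 and 86.5 CPM in clusters 1, 2, 4 and 6. *Slc1a3*, at 111 CPM in cluster 0 and 423 CPM in cluster 3, thus differed between the clusters with the highest *Sox9*. *Has2* was 42.5 CPM (34.3 to 52.2) in cluster 7 and 1.17 CPM (0.767 to 1.72) in cluster 1, so the synthase of hyaluronan, the ligand of CD44, was lowest in 1 of the clusters where *Cd44* was high and highest in the other. *Id3* was 111 CPM in cluster 4 and 8.49 CPM in cluster 1. These are values of 1 library, and no difference between clusters was tested.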
